A study of Mus musculus with 4 samples.

Results

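The nectin-binding receptor genes Cd226, Cd96, Tigit and Crtam and the ligand genes Pvr and Nectin2 were followed through the RNA of sorted mouse natural killer (NK) cells. These 6 genes were taken by symbol from the 17723 genes listed in any of 4 libraries, and all 6 were listed in at least 1 library. The libraries came from the spleens of C57BL/6J mice, given as 6 to 8 weeks old. NK cells carrying or lacking surface DNAM-1 (DNAM-1+ or DNAM-1-) were collected at day 0, labelled normal spleen, and at day 17 after transfer of GFP-positive MLL-AF9 acute myeloid leukaemia (AML) cells without irradiation, labelled AML spleen. Each of the 4 groups is 1 library. The labels give neither the number of mice behind a library nor the other sort gates, and the treatment text speaks of leukaemia mice at both days although the titles call day 0 normal. No difference between 2 libraries therefore has a replicate check.

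The receptors form a small group of immunoglobulin-like proteins on NK and T cells that share ligands. DNAM-1, encoded by Cd226, activates NK cells when it binds the poliovirus receptor (PVR, also called CD155) or nectin-2 (CD112) on a target cell. TIGIT and CD96 compete with DNAM-1 for PVR, TIGIT as an inhibitor, and CD96 as an inhibitor in mouse NK cells. CRTAM, a receptor of activated NK and T cells, binds the nectin-like protein CADM1 instead.

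Levels are the deposited FPKM (fragments normalised to transcript length and library size), and a gene that a file does not list was taken as 0. FPKM is per length, so levels of different genes in 1 library can be set side by side. The libraries list between 15460 and 16161 genes, and between 8950000 and 9250000 fragments a library were estimated from how microRNA values step. The NK receptor gene Ncr1 (NKp46) was at 573 FPKM with and 383 without surface DNAM-1 in normal spleen, and 597 against 423 in AML spleen. All 10 NK identity genes examined were at 147 FPKM or more in every library, and 4 of them rose and 0 fell in DNAM-1+ cells by the limma fit described below. The libraries also hold RNA of marker genes of other cell types, and which cells made it was not tested. Summed over 10 B cell markers, the level was 224 and 248 FPKM in the DNAM-1+ libraries and 1081 and 1041 in the DNAM-1- libraries, and all 10 fell. Summed over 10 monocyte markers, of which 8 fell and 1 rose, it was 378 and 445 against 862 and 868. The largest parts of the DNAM-1+ monocyte sums were Ly6c2 (137 and 188 FPKM), which was not called, and Ccr2 (122 and 113), which rose. Summed over 10 T cell markers, of which 5 were tested and 4 rose, the level was 80.1 and 75.6 against 34.6 and 30.4. The tested T cell marker that did not rise, Cd8b1, was at 2.28 and 0.67 against 5.32 and 2.11. No marker of these 3 lists was at 0 in any library. In RNA from sorted bulk cells, fewer cells of a type and less RNA per cell cannot be told apart.

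Cd226 (NCBI Gene 225825) separated the libraries as they were sorted. In normal spleen its level was 38.6 FPKM in the DNAM-1+ library and 0.45 in the DNAM-1- library. In AML spleen the levels were 36.1 and 0.58 FPKM. The remaining RNA in the DNAM-1- libraries was 1.17% and 1.61% of the level in the DNAM-1+ libraries of the same spleen and rested on an estimated 5 to 10 and 6 to 13 reads. These estimates take the shortest and the longest GENCODE transcript with a RefSeq accession, and all counting intervals given here take the shortest. The DNAM-1+ level was 85.7-fold higher in normal spleen and 62.2-fold higher in AML spleen, with 95% counting intervals of the log2 ratio of 5.14 to 8.01 and 4.89 to 7.48. All intervals of ratios given here are of the ratio without an added 1, and all intervals cover counting error only. Because the cells were sorted on the product of Cd226, this difference describes the sort and was not read as a result of a test. Among protein-coding genes Cd226 had the highest log2 ratio of (FPKM + 1) in both spleens, first of 8542 and of 8476.

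**Figure D1:**
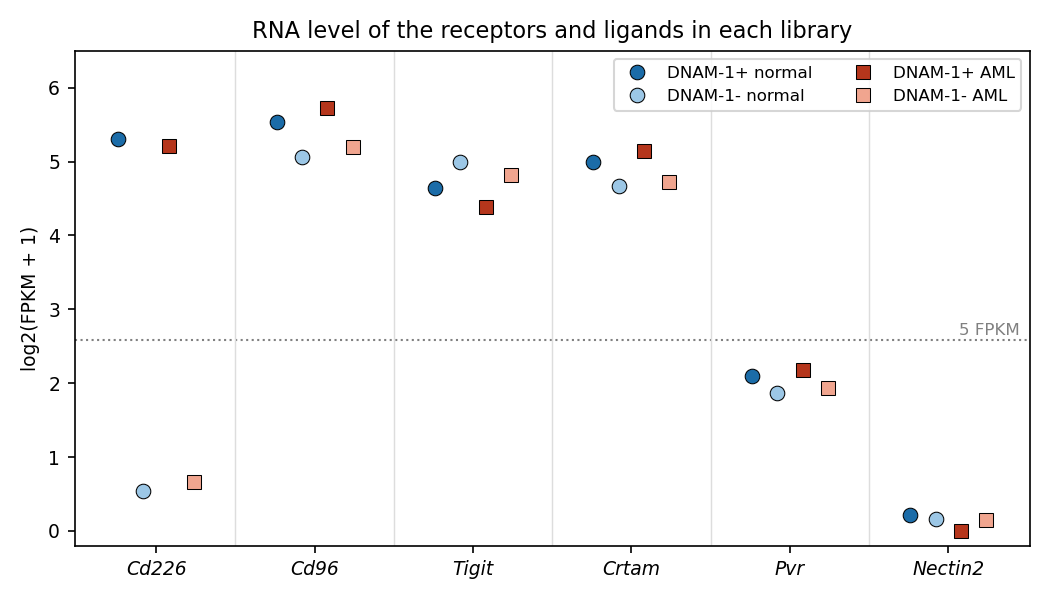
Level of each gene as log2(FPKM + 1) on the vertical axis, with 1 point for each of the 4 libraries. Cd226 is split by the sort, Cd96, Tigit and Crtam lie above 5 FPKM in all 4 libraries, and Pvr and Nectin2 lie below it in all 4.

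Cd96 (84544) was the most abundant of the 6 genes in every library. In normal spleen it was at 45.2 FPKM in the DNAM-1+ library and 32.3 in the DNAM-1- library, and in AML spleen at 52.0 and 35.6. Both DNAM-1+ libraries lay above both DNAM-1- libraries. The level was 1.40-fold (normal spleen) and 1.46-fold (AML spleen) higher in the DNAM-1+ cells. As log2 ratios of (FPKM + 1) these differences were 0.47 and 0.53, and the 95% counting intervals, 0.34 to 0.63 and 0.40 to 0.69, both excluded 0. In normal spleen 95.4% of genes at 5 FPKM or more had a lower log2 ratio, and in AML spleen 97.3%.

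Tigit (100043314) went the other way. In normal spleen it was at 24.1 FPKM in the DNAM-1+ library and 30.9 in the DNAM-1- library, and in AML spleen at 19.8 and 27.3. Both DNAM-1- libraries lay above both DNAM-1+ libraries. The log2 ratio of DNAM-1+ over DNAM-1- cells was -0.35 in normal spleen, with a 95% counting interval of -0.64 to -0.09, and -0.44 in AML spleen, with an interval of -0.77 to -0.16. Of all genes at 5 FPKM or more, 10.4% had a lower ratio in normal and 6.56% in AML spleen.

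Crtam (54698) moved with Cd96. In normal spleen it was at 30.8 FPKM in the DNAM-1+ library and 24.5 in the DNAM-1- library, and in AML spleen at 34.4 and 25.5, so that both DNAM-1+ libraries were again the higher ones. The log2 ratio was 0.32 in normal spleen, with a 95% counting interval of 0.22 to 0.45, and 0.42 in AML spleen, with an interval of 0.32 to 0.55.

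**Figure D2:**
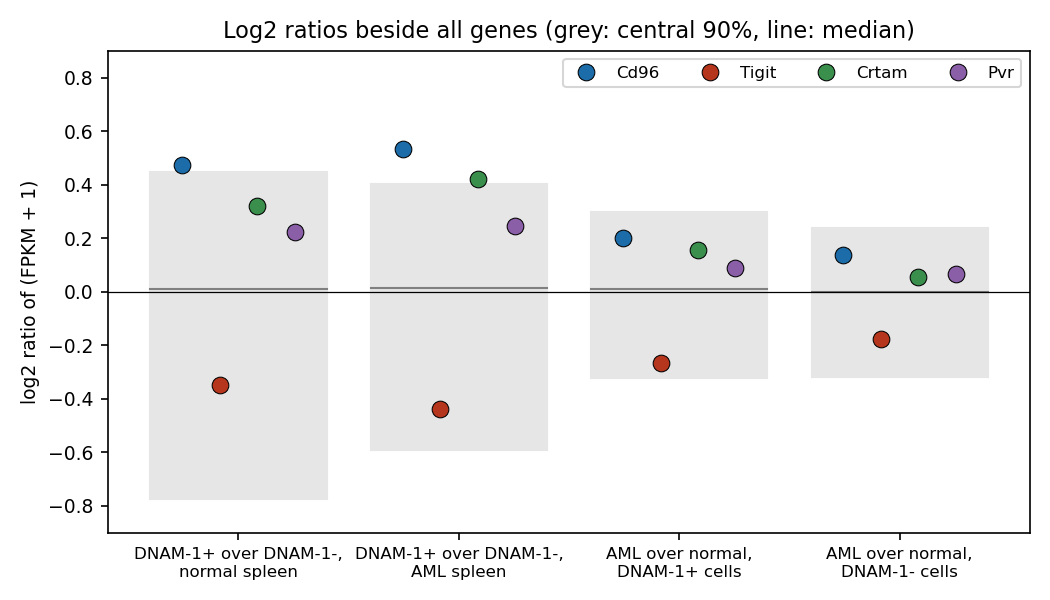
Log2 ratio of (FPKM + 1) for Cd96, Tigit, Crtam and Pvr in the 4 comparisons of 2 libraries. Grey boxes hold the central 90% of all genes whose higher library reached 5 FPKM, and the line in each is their median. Cd96, Crtam and Pvr lie above 0 and Tigit below 0 in all 4 comparisons, although after scaling to NK identity genes Crtam (-0.06) and Pvr (-0.02) lie below 0 for AML over normal in DNAM-1- cells. Cd226 is left out because the cells were sorted on its product, and Nectin2 because it rests on at most 4 estimated reads a library.

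The mean DNAM-1 difference over both spleens was tested with limma on log2(FPKM + 1) of all 4 libraries, with the spleen as a further term, over the 9074 genes that reached 5 FPKM in at least 1 library. Of all genes tested, 7.35% rose and 8.38% fell in DNAM-1+ cells at a Benjamini-Hochberg adjusted p below 0.05. Of the 6 genes, 4 passed the expression minimum: Cd96, Tigit and Crtam in every library, and Cd226 only through the libraries in which the sort made it high. On the log2 scale Cd96 rose by 0.50 (SE 0.06, limma's adjusted p = 0.0037, higher in 2 of 2 spleens). Crtam rose by 0.37 (SE 0.07, adjusted p = 0.015, higher in 2 of 2). Tigit fell by 0.39 (SE 0.07, adjusted p = 0.012, lower in 2 of 2). The fit has 1 residual degree of freedom, which is how far the DNAM-1 difference differed between the spleens. It borrows its spread in part from other genes and covers these libraries alone. The SE and adjusted p therefore measure no spread between replicate libraries or mice.

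These calls did not all hold under other settings. Without limma's mean-variance trend the adjusted p was 0.027 for Cd96, 0.052 for Tigit and 0.062 for Crtam, and with no expression minimum, where limma called 0 of 17723 genes although 3425 had an unadjusted p below 0.05, it was 0.12, 0.14 and 0.14. NK identity genes were higher in the DNAM-1+ libraries, with a median log2 difference of 0.20 over the 10 identity genes against 0.01 over all genes. Scaling each library to those 10 genes shifted the median of all genes by -0.17 and changed the calls over all genes from 667 that rose and 760 that fell to 307 and 2247. On that scale Cd96 was 0.33 higher (adjusted p = 0.015), Tigit 0.56 lower (adjusted p = 0.0026) and Crtam 0.20 higher (adjusted p = 0.075). T cell markers rose beside Cd96 and Crtam and B cell and monocyte markers fell beside Tigit, with the summed levels given above, and their part in these differences was not tested.

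**Figure D3:**
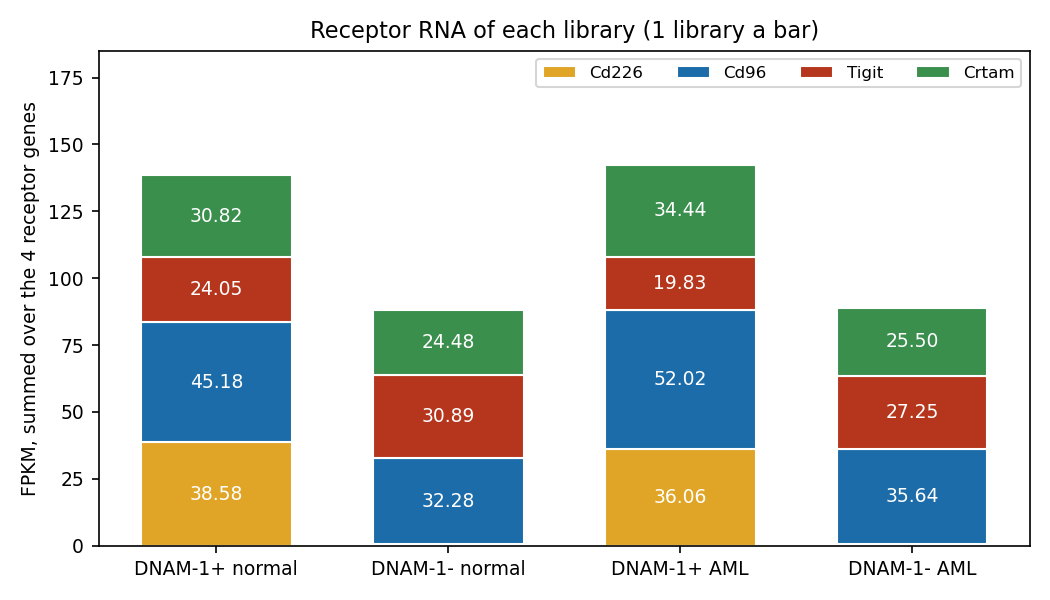
FPKM of the 4 receptor genes stacked for each library, with the deposited values printed in the bars. The sum was 139 and 142 FPKM in the DNAM-1+ libraries and 88.1 and 89.0 in the DNAM-1- libraries, where the Cd226 segment, at 0.45 and 0.58 FPKM, is too thin to see.

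Set beside each other, the receptors were present in different proportions in the sorted populations. Summed over the 4 receptor genes the level was 139 FPKM with and 88.1 without surface DNAM-1 in normal spleen, and 142 and 89.0 in AML spleen. Most of this gap was Cd226, since Cd96 and Tigit together were at 69.2 and 63.2 FPKM in normal and 71.9 and 62.9 in AML spleen. Of the 4-receptor sum Cd226 held 27.8% and 25.3% in the DNAM-1+ libraries and 0.51% and 0.65% in the DNAM-1- libraries, which the sort sets and which lowers every other share in DNAM-1+ cells. The shares were therefore also taken without Cd226, a choice made after seeing the data. Of the sum of Cd96, Tigit and Crtam, Tigit then held 24.0% with and 35.2% without surface DNAM-1 in normal spleen, and 18.7% and 30.8% in AML spleen. Cd96 held 45.2% and 36.8% in normal spleen, and 48.9% and 40.3% in AML spleen. The ratio of Cd96 to Tigit was 1.88 with and 1.05 without surface DNAM-1 in normal spleen, and 2.62 and 1.31 in AML spleen. The ratio of Cd96 to Crtam lay between 1.32 and 1.51 in all 4 libraries. These shares and ratios describe single libraries and carry no test.

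The order of the receptors within a library also differed. In DNAM-1+ normal cells the order was Cd96, Cd226, Crtam and Tigit. The 95% counting intervals of Cd96 and Cd226, 42.3 to 48.3 and 35.0 to 42.4 FPKM, just overlapped, and the other neighbours were apart. The Cd226 interval takes the 429 reads of its shortest transcript and would be narrower with the 875 of its longest. This overlap may therefore depend on the transcript taken. The order of different genes also depends on the transcript lengths behind the deposited FPKM. These are not given, and the counting intervals do not cover them. In DNAM-1+ AML cells the order was the same, with Cd226 (32.6 to 39.8) and Crtam (32.7 to 36.2) overlapping. Without surface DNAM-1, in normal spleen Cd96 and Tigit overlapped, at 29.8 to 34.9 and 27.1 to 35.0 FPKM, with Crtam below both. In DNAM-1- cells of AML spleen Cd96 stood apart at 33.0 to 38.4 FPKM, and Tigit (23.8 to 31.2) and Crtam (24.0 to 27.0) overlapped.

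Cd96 and Tigit lie on mouse chromosome 16 with 33 protein-coding genes between them in RefSeq's GRCm38.p6 annotation. Their promoter sequences are shown because they are the competing receptors whose RNA differed in opposite directions. RefSeq's window of 300 bases runs across the start of the gene, on the minus strand, at chr16:46120199-46120498 for Cd96 and chr16:43664135-43664434 for Tigit. Capitals mark TGTGGT or its reverse complement ACCACA, the core that RUNX factors, which act in NK cell development, are known to bind.
Cd96: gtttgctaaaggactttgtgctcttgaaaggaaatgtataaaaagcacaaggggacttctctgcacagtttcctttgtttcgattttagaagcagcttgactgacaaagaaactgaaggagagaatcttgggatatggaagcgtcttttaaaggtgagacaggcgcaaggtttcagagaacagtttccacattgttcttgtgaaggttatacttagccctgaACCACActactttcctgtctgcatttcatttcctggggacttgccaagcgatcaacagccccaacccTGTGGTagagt
Tigit: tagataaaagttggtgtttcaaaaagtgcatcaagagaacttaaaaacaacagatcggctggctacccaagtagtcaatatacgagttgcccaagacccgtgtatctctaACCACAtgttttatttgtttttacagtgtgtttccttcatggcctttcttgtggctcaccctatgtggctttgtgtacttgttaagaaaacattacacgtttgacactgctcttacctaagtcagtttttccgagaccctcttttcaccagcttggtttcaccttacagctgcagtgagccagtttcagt
The motif occurs at bases 223 to 228 and 290 to 295 of the Cd96 window and at bases 111 to 116 of the Tigit window, and in 16.8% of 32851 promoter windows of the same length. On both strands, the longer ETS form GGAAGT, found in 23.8% of windows, and the T-box core GGTGTG, found in 19.0%, matched neither window. The shorter ETS letters GGAA or their reverse complement TTCC do occur in both windows and were not counted over all windows. A match is a description of these letters and not a binding site. Of the 6 genes, Nectin2 was the only other one matched in the promoter table.

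The ligand genes were low in the sorted cells. In normal spleen Pvr (52118) was at 3.27 FPKM in the DNAM-1+ library and 2.66 in the DNAM-1- library, and in AML spleen at 3.54 and 2.83, an estimated 68 to 92 reads a library. Both DNAM-1+ libraries were slightly higher, with log2 ratios of (FPKM + 1) of 0.22 and 0.25. Without the added 1 they were 0.30 and 0.32, and their 95% counting intervals, -0.17 to 0.79 and -0.14 to 0.78, included 0, so that a difference was not detectable at this depth. Pvr missed the minimum of 5 FPKM, and with a minimum of 1 FPKM limma gave a difference of 0.23 (adjusted p = 0.30). Macrophage markers, of which 6 of 6 tested fell, summed to 23.8 and 26.6 FPKM in the DNAM-1+ libraries and 77.0 and 60.3 in the others, and their part in the Pvr level was not tested.

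Nectin2 (19294) was at 0.16 and 0.12 FPKM in the DNAM-1+ and DNAM-1- libraries of normal spleen and at 0 and 0.11 in those of AML spleen. It was not listed in the DNAM-1+ AML library, and elsewhere it rested on an estimated 2 to 4 reads. A count of 3 reads corresponds to 0.17 FPKM for its shortest transcript, so no fold change is given. In RefSeq, Pvr and Nectin2 lie on chromosome 7 with 6 protein-coding genes between them, and both were well below the receptors in these cells apart from Cd226 in DNAM-1- cells.

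Between normal and AML spleen the log2 ratios of the receptor genes were smaller than between the sorted subsets. Cd96 had log2 ratios of AML over normal of 0.20 with surface DNAM-1 and 0.14 without it, and Crtam of 0.16 and 0.06, the last of which became -0.06 when libraries were scaled to NK identity genes. Tigit had ratios of -0.27 and -0.17. Of the 4 receptor genes, only Cd96 and Crtam in DNAM-1+ cells had a 95% counting interval that excluded 0, at 0.07 to 0.33 and 0.06 to 0.27. Scaled to NK identity genes, these log2 ratios of (FPKM + 1) shrank to 0.10 for Cd96 and 0.06 for Crtam. No interval was computed on that scale, so the exclusion of 0 holds for the deposited scale alone. Neither the receptor genes nor Pvr reached a 2-fold difference in either subset, as did 0.311% (higher) and 0.346% (lower) of all genes in DNAM-1+ cells and 0.193% and 0.397% in DNAM-1- cells. In the DNAM-1 comparisons only Cd226 did, beside 1.28% of genes higher and 3.97% lower in normal spleen and 0.894% and 3.19% in AML spleen.

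In the same limma fit 0 of the 4 tested receptor genes passed for AML, beside 0.0661% of all genes that rose and 0.287% that fell. The mean AML difference was -0.22 for Tigit (SE 0.07, adjusted p = 0.30, 0.087 to 0.67 over the alternatives), 0.17 for Cd96 (SE 0.06, adjusted p = 0.38, 0.25 to 0.67) and 0.11 for Crtam (SE 0.07, adjusted p = 0.58, 0.49 to 0.99). By the unadjusted limma p alone, 2 of the 4 were below 0.05, Tigit and Cd96, beside 12.5% of all genes tested. For Cd226 the difference was 0.01 (SE 0.12, adjusted p = 0.98). That mean joins a log2 ratio of -0.095 with surface DNAM-1 to 0.12 without it. The second ratio rests on an estimated 5 reads (normal spleen) and 6 reads (AML spleen) of the shortest transcript. The fit therefore cannot decide whether Cd226 differed with AML, and the counts out of 4 given here include it. Whether both subsets of 1 spleen came from shared mice is not labelled, and the AML difference is therefore secondary. Whether the DNAM-1 difference itself changed between spleens has no residual degree of freedom to test it. As values, the log2 ratio in AML spleen minus that in normal spleen was 0.06 for Cd96, -0.09 for Tigit, 0.10 for Crtam and -0.22 for Cd226.

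Of the other genes of these pathways, 41 in 4 lists, 30 reached the minimum, and 2 rose and 1 fell in DNAM-1+ cells, with a median log2 difference of 0.02 against 0.01 over all genes. Over all genes tested 7.35% rose and 8.38% fell, so that these counts do not stand out from the background. Among DNAM-1 partners and signalling genes 1 of 18 tested rose. This was Lck, a Src family kinase of T and NK cells, at 336 FPKM with and 234 without surface DNAM-1 in normal spleen, and 336 and 245 in AML spleen (log2 difference 0.48, SE 0.06, adjusted p by limma = 0.0032, higher in 2 of 2 spleens). T cell markers rose in the same libraries, and their part in the Lck level was not tested. Fyn, the Src family kinase that phosphorylates DNAM-1, was at 241, 218, 240.0 and 219.7 FPKM in the same order, DNAM-1+ before DNAM-1- and normal before AML spleen, and did not pass (adjusted p = 0.18). The LFA-1 integrin genes Itgal and Itgb2, whose product associates with DNAM-1, were among the most abundant, at 347 to 425 and 556 to 600 FPKM, and did not pass either (adjusted p = 0.14 and 0.80).

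Among genes of inhibitory signalling, 1 of 7 tested rose and 1 fell, too few to set against the 7.35% and 8.38% of all genes. Ptpn6, which encodes the phosphatase SHP-1, was at 111 FPKM with and 192 without surface DNAM-1 in normal spleen, and 120 and 189.8 in AML spleen, and fell by 0.72 (SE 0.06, adjusted p by limma = 0.00088, lower in 2 of 2 spleens). B cell and monocyte markers fell in the same libraries, and their part in the Ptpn6 level was not tested. Dok2, an adaptor that dampens receptor signalling, was at 181, 159, 192 and 157 FPKM in the same order and rose by 0.24 (SE 0.06, limma's adjusted p = 0.049, higher in 2 of 2). Its call held in 4 of 10 alternative settings, with an adjusted p from 0.025 to 0.45, and after scaling to NK identity genes its difference was 0.064. T cell markers and NK identity genes were higher in the same libraries, and their part in the Dok2 level was not tested. Inpp5d, which encodes the phosphatase SHIP-1 recruited by TIGIT, lay between 78.6 and 84.5 FPKM in all 4 libraries. Of the 4 tested CRTAM polarity partners none was called.

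**Figure D4:**
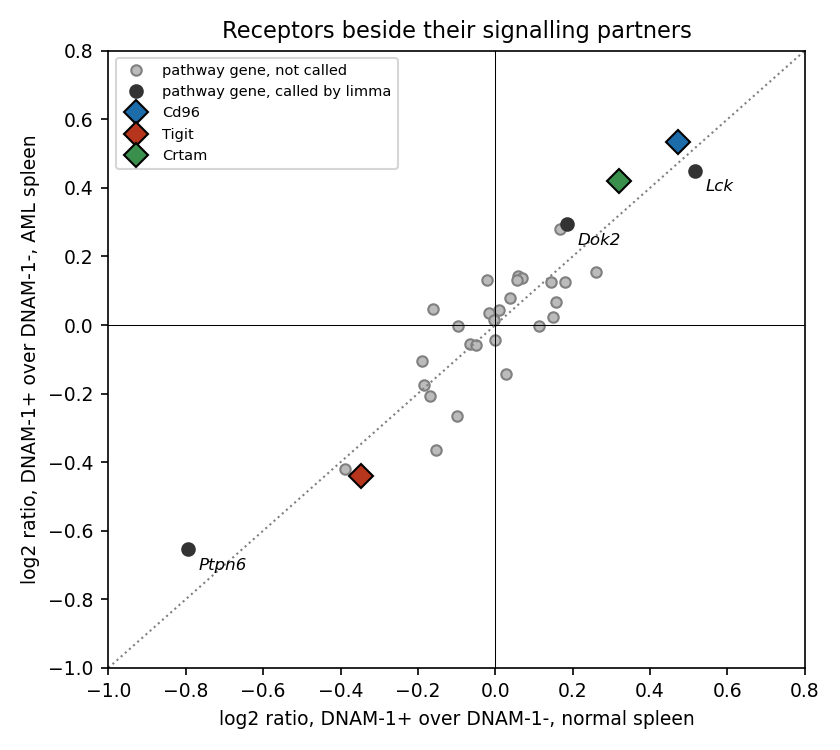
Log2 ratio of DNAM-1+ over DNAM-1- cells in normal spleen (horizontal) against AML spleen (vertical) for the 30 pathway genes that reached 5 FPKM and for Cd96, Tigit and Crtam. The dotted line marks equal ratios, Lck and Dok2 lie with Cd96 and Crtam above 0 on both axes, and Ptpn6 lies with Tigit below 0.

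The remaining nectins and nectin-like genes were low. Only Afdn, which encodes the nectin-binding scaffold afadin, reached 5 FPKM, at 5.18, 7.09, 5.38 and 7.54 FPKM in the order used for Fyn (adjusted p = 0.070). Cadm1, the gene of the CRTAM ligand, was at 0.28, 0.89, 0.43 and 0.99 FPKM. Nectin1, a ligand of mouse CD96, was at 0.19, 1.67, 0.32 and 2.35 FPKM, higher in both DNAM-1- libraries. So were Nectin4, Cadm1, Cadm2, Cadm3 and Afdn, whereas Nectin3 and Cadm4 were higher in the DNAM-1+ library of normal spleen. Summed B cell, monocyte and macrophage markers were also higher in both DNAM-1- libraries, and their part in these levels was not tested. Nectin1 was named after its values were seen and was below the minimum for a test. Pvrig, whose product also binds nectin-2, was listed in none of the libraries. The files list only genes above 0 and the annotation is not given. A level of 0 and a gene that was not measured therefore cannot be told apart.

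The protein-coding genes whose levels over the 4 libraries ran closest to each receptor were found by Euclidean distance between log2(FPKM + 1) values centred on each gene's mean, among 8656 genes. With 4 values a gene a small distance carries no test, and no typical nearest distance was computed. For Cd226 the nearest were Il7r (distance 0.98), Podnl1 (1.91) and Apol7b (1.93), all at far larger distances than the nearest genes of the other receptors. Each of them reached 5 FPKM in the DNAM-1+ libraries alone, and so passed the minimum only through the split made by the sort. Il7r, the receptor chain for interleukin-7, was at 38.5 and 2.06 FPKM with and without surface DNAM-1 in normal spleen, and 38.7 and 2.10 in AML spleen. For Cd96 they were Ptms (0.04), Serp2 (0.06) and Itm2c (0.07). Ptms, the nearest, was at 136, 101, 159.8 and 110 FPKM in the order used for Fyn. For Tigit they were Sgk3 (0.06), Gm7609 (0.06) and Hmgn1 (0.07), and for Crtam Socs1 (0.03), Ero1a (0.04) and Abca2 (0.04). Socs1, a brake on cytokine signalling, was at 20.4, 16.1, 23.5 and 17.1 FPKM.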

How the data were processed

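RNA-seq was analysed in 4 libraries, 1 a group, grouped by sample title. The deposited files hold FPKM, per the file headers, rounded to 2 decimals, for NCBI Gene numbers, with genes above 0 only. Bowtie2 2.2.5 and RSEM are named, without their roles, in the submitters' processing notes. Genome build and annotation are not given in the sources used here. Of 17723 gene numbers, 17668 matched a symbol in RefSeq's table of GRCm38.p6 and 55 did not. Members and lists were chosen with earlier results of these data known. Genes named are the 6 members, pathway genes called by limma or 2-fold at 5 FPKM or more, the 3 nearest genes of each receptor and check genes, and others as examples of their lists, chosen after their values were seen.

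Log2 ratios were taken after adding 1 FPKM, which understates differences of low genes. limma 3.58.1 (R 4.3.3) was fitted with its mean-variance trend to subset and spleen, two-sided, with 1 residual degree of freedom, and was checked on simulated data. The simulation had independent noise and the same DNAM-1 difference in both spleens, as the fit assumes. It cannot show how the fit does on libraries without replicates. Depth came from microRNA genes of 55 to 100 nt, whose lengths less 36 nt made 90.7% to 95.4% of values up to 6 reads whole within 0.1 read. The 36 nt and the depth of each library were chosen to make this share as large as possible, so the share is no separate check of the depth. Read numbers are therefore estimates, from GENCODE transcript lengths that may differ from those the authors used, and 95% intervals are exact Poisson for a level and exact binomial (Clopper-Pearson) for a ratio. They cover counting error only.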

Additional observations from a re-analysis of the deposited data

Results flagged for a closer look

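For Cd226 the AML difference had opposite signs in the sorted subsets: the log2 ratio of (FPKM + 1), AML over normal, was -0.095 in DNAM-1+ cells (38.6 to 36.1 FPKM) and 0.12 in DNAM-1- cells (0.45 to 0.58 FPKM). Without the added 1 the log2 ratios were -0.097 and 0.37, with 95% counting intervals of -0.30 to 0.11 and -1.72 to 2.31, which include 0. Each direction rests on 1 pair of libraries, and the difference was not tested.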

How the results depend on the processing

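Among the 10 alternatives to the limma fit, Cd96 kept its call for the DNAM-1 difference in 9, Tigit in 8 and Crtam in 7, with ranges of 0.33 to 0.53, -0.56 to -0.34 and 0.20 to 0.40 on the log2 scale and no change of sign. With no mean-variance trend 2 of the 6 genes were called, in place of 4, and with no expression minimum 0. These counts include Cd226, which the sort set, so that without the trend 1 of the other 3, Cd96, was called. Over all genes, 667 rose and 760 fell for DNAM-1; these counts were 307 and 2247 after scaling to NK identity genes, 0 and 0 with no minimum (3425 at an unadjusted limma p below 0.05), and 321 rose with no trend and 434 fell with a minimum of 20 FPKM. For AML 6 rose and 26 fell; 26 and 81 did among protein-coding genes, 18 and 51 at 20 FPKM, 0 and 0 with no minimum (1269 unadjusted), 1 and 4 with no trend, and 88 fell with NK scaling, 17 with a pseudocount of 5 and 5 with a minimum of 1 FPKM. The mean AML difference of Cd226 turned to -0.026 with a pseudocount of 5 and to -0.051 with NK scaling, and the cause was not tested. Over all alternatives, 2-fold counts of all genes ran from 21 to 221 higher (114 as reported) and 143 to 589 lower (354) for DNAM-1 in normal spleen, and from 20 to 169 (79) and 110 to 444 (282) in AML spleen. For AML they ran from 3 to 108 (27) and 3 to 102 (30) in DNAM-1+ cells, and from 2 to 73 (17) and 7 to 119 (35) in DNAM-1- cells. As a share of the receptors without Crtam, but with the sorted gene Cd226, Tigit held 22.3% and 48.6% in normal and 18.4% and 42.9% in AML spleen, so that this setting does not take out the part the sort plays. Among the pathway genes called, Lck and Ptpn6 kept their call in 9 of 10 alternatives and Dok2 in 4. No replicate could be left out, since that leaves no residual degree of freedom. No paired analysis was possible because each group holds 1 library and the labels number no mice; the spleen term of the fit sets the subsets of each condition beside each other, but not by mouse. Depth limits Nectin2, Pvr and Cd226 in DNAM-1- cells most.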
